A study of Mus musculus with 6 samples.

Results

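Red cell and haemoglobin transcripts were followed through 6 libraries of mouse tibial cortex, in 9 genes: the globin genes Hbb-bs, Hbb-bt, Hba-a1 and Hba-a2, the haem enzyme gene Alas2, the membrane gene Slc4a1, the receptor gene Epor and the regulator genes Klf1 and Gata1. They were taken by name from a deposited comparison of 25721 genes, and all 9 were found there and passed the filter on low counts, which kept 15609 genes. Wild-type mice were given either a diet with 0.2% adenine by weight, which injures the kidney tubules and serves as a model of chronic kidney disease (CKD), or a control diet without adenine. The diets began at 8 weeks of age and ran for 4 weeks, and the tibiae were taken at 12 weeks, cleaned, frozen, cut at the ends, flushed of marrow and pulverised before polyA RNA was made. There were 3 libraries on the adenine diet (adenine 1 to 3) and 3 on the control diet (control 1 to 3). The labels do not say that each came from a separate mouse, so p-values measure the spread between these libraries, and flushing can leave marrow and blood in the bone. The labels give no sex, strain or blood counts.

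In the adult mouse, red cells form in the marrow from erythroblasts, which divide under erythropoietin, a kidney hormone read by the receptor that Epor encodes. GATA1 and KLF1 switch on the erythroid genes, among them the globins, the haem enzyme ALAS2 and band 3, the anion exchanger of the red cell membrane that Slc4a1 encodes. The nucleus is then lost, and reticulocytes carry globin RNA into the blood, whereas within this lineage Gata1 and Klf1 RNA marks the nucleated precursors. Anaemia is a known feature of chronic kidney disease, and whether erythroid RNA of the flushed bone differed with the diet is the question here. In RNA from whole bone, fewer erythroid cells and less RNA per cell cannot be told apart.

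The 9 genes lie in a pair of globin clusters and at 5 other sites. RefSeq's promoters for GRCm38.p6 include 8 of the 9, all but Slc4a1. Of these, 7 are printed to show where the motifs of the erythroid regulators stand in each, and Hba-a2 is left out as a near copy of Hba-a1. Each stretch is the 250 bases before the annotated start, 5′ to 3′ on the gene's strand. Capitals mark GATAA, a form of the motif that GATA factors bind, and CACCC, the motif of KLF1 and related factors, each searched on both strands, so that TTATC and GGGTG are marked too. No marked GATAA overlapped a CACCC.
Hbb-bs, chr7:103827929-103828178, minus strand: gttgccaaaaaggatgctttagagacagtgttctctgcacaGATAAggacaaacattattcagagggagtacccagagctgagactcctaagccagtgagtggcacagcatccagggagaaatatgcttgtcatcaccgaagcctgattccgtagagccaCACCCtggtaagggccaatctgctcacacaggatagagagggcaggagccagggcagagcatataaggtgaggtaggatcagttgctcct
Hbb-bt, chr7:103813924-103814173, minus strand: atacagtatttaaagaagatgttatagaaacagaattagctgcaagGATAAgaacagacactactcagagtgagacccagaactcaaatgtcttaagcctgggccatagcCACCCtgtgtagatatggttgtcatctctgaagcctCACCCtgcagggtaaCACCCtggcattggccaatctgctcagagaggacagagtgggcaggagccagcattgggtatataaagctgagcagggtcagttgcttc
Hba-a1, chr11:32283422-32283671, plus strand: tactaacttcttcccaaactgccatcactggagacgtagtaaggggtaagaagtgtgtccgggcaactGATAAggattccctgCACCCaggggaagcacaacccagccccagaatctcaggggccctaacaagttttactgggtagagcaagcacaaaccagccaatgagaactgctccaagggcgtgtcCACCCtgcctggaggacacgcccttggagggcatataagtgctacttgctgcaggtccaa
Alas2, chrX:150547167-150547416, plus strand: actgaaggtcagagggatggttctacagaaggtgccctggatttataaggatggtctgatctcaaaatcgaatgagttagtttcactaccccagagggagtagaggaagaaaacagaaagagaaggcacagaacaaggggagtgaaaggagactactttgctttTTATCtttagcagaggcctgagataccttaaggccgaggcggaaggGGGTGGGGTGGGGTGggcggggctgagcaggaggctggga
Epor, chr9:21963577-21963826, minus strand: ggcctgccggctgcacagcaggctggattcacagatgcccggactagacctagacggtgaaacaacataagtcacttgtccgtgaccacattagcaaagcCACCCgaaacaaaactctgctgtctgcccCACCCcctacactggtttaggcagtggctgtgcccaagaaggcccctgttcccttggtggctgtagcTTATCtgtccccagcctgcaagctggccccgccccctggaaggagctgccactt
Klf1, chr8:84901732-84901981, plus strand: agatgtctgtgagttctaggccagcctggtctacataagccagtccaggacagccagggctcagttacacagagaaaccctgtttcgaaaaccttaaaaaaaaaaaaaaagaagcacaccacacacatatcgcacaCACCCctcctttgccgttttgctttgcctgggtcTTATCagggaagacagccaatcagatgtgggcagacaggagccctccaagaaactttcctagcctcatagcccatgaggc
Gata1, chrX:7967911-7968160, minus strand: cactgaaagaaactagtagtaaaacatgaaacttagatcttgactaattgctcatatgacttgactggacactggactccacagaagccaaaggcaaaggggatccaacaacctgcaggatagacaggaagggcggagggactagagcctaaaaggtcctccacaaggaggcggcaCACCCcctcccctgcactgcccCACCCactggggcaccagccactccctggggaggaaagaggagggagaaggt
GATAA was present in 7 of the 8 stretches, Gata1's being without it, against 22.58% of 32851 mouse promoters of that length. CACCC was present in all 8, against 52.01% of those promoters. The stretch of Hba-a2 equals that of Hba-a1 over 247 bases once shifted by 3. A match of letters is a description and not a bound site.

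The adult globin pairs are close to identical in coding sequence. In GENCODE M21, the 426 coding bases before the stop codon differ between Hba-a1 and Hba-a2 at 1 position, C381T, and the 441 of Hbb-bs and Hbb-bt at 1 position, C417T (positions counted from the A of the start codon, with the base of the gene named first given first). The 41 coding bases around each difference, from base 361 to 401 in the alpha pair and from 397 to 437 in the beta pair, are shown with the differing base in capitals, since it is the only difference between the coding sequences of a pair.
Hba-a1: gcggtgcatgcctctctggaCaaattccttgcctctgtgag
Hba-a2: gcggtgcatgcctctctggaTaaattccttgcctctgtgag
Hbb-bs: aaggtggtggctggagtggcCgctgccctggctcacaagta
Hbb-bt: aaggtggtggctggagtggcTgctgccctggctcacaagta
Of all coding stretches of 150 bases, 83.4% of Hba-a2 also occur in Hba-a1 and 91.4% of Hbb-bt also occur in Hbb-bs. The sources used here do not say how reads that fit both copies were counted, so the 4 globin rows taken singly are uncertain, and sums over each pair are given beside them.

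No erythroid or haemoglobin gene passed the test for a difference between the diets. The diets overlapped in each of the 9 genes. Adenine 1 was the highest library for 6 of them and control 2 for the other 3, and the widest gaps were among the controls, where control 3 had the lowest level of all 6 libraries for 9 of the 9 genes. Over all 15609 genes, control 3 was the lowest library for 25%. By edgeR's quasi-likelihood test 0 of the 9 passed an adjusted p of 0.05, as did 0% of all genes tested. At an unadjusted p under 0.05, 0 of the 9 passed, against 10.7% of all genes (4.22% higher on the adenine diet). The DESeq2 Wald test also passed 0 of the 9, against 1.93% of the genes to which it gave an adjusted p, and the authors' deposited table called 0 of the 9, against 1.4% of its genes. The last 2 are not separate checks: each called 361 genes, and both gave Hbb-bs a log2 fold change of 0.513. In 0 of the 9 genes did the libraries of the diets separate without overlap, against 16.5% of all genes (7.68% with the adenine libraries above).

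**Figure D1:**
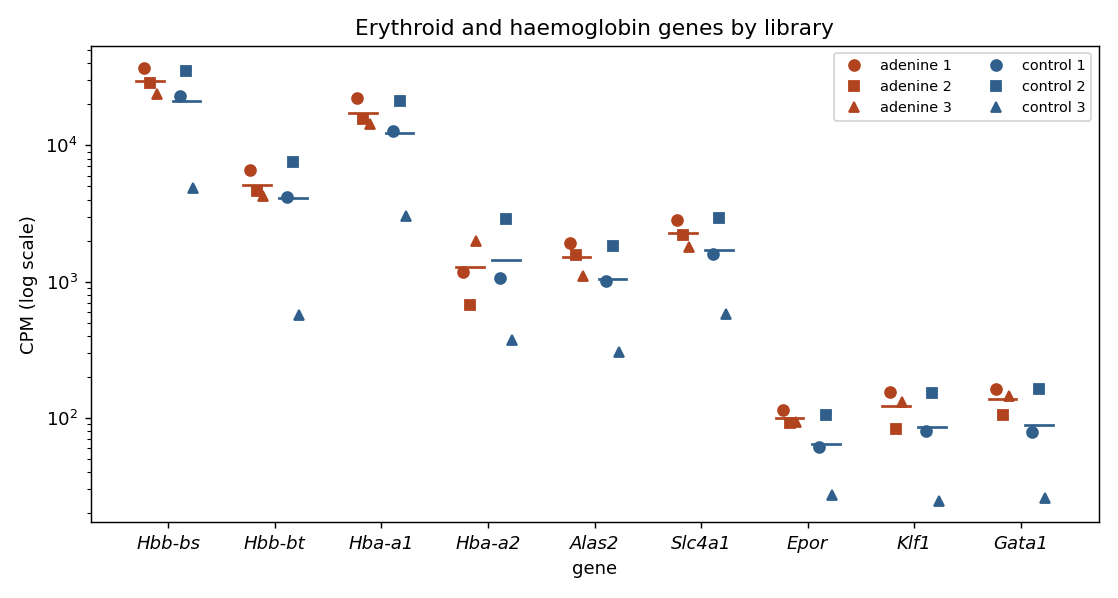
CPM (counts scaled to library size with TMM factors, log axis) of 9 erythroid genes in each library, adenine in red and control in blue, with a bar at the group mean. Control 3 is the lowest point of every gene, while control 2 stands among or above the adenine libraries.

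The beta-globin genes carried the most RNA. Hbb-bs (ENSMUSG00000052305; chromosome 7, 103475741 to 103477303 in the files' coordinates, for which the sources used here name no build) is one of the paired adult beta-globin genes of the Hbb-s haplotype. Its levels in CPM, counts scaled to library size, were 37233, 28569 and 23951 in adenine 1, 2 and 3, against 23051, 35434 and 4900 CPM in control 1, 2 and 3. Adenine 1 was highest, control 2 lay between the adenine libraries, and control 3 stood far below the rest. The mean was 29918 ± 6743 CPM on the adenine diet and 21128 ± 15358 CPM on the control diet (SD, n = 3 each). On the log2 scale the fitted fold change, adenine over control, was 0.50 (standard error, SE, 0.81; 95% interval -1.38 to 2.39; edgeR adjusted p = 0.814). An interval this wide holds both clear losses and clear gains, so a difference of moderate size was not detectable in 3 libraries against 3.

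Hbb-bt (ENSMUSG00000073940; chromosome 7, 103461731 to 103463203), the neighbouring beta-globin gene, had 6542, 4632 and 4226 CPM in adenine 1, 2 and 3, against 4209, 7592 and 571 CPM in control 1, 2 and 3. Control 2 exceeded every adenine library and control 3 was 13.3 times lower than control 2, the widest gap among the controls in any of the 9 genes. The log2 fold change was 0.32 (SE 0.83; edgeR adjusted p = 0.889). The 2 beta rows summed gave 35053 ± 7972 CPM on the adenine diet and 25251 ± 18857 CPM on the control diet (SD, n = 3 each), and their log2 fold change was 0.47 (SE 0.83; edgeR adjusted p = 0.830).

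Hba-a1 (ENSMUSG00000069919; chromosome 11, 32233511 to 32234465), an adult alpha-globin gene, ranked the libraries as Hbb-bs did. Its levels were 22326, 15543 and 14307 CPM in adenine 1, 2 and 3, against 12667, 21114 and 3056 CPM in control 1, 2 and 3. The log2 fold change was 0.50 (SE 0.77; edgeR adjusted p = 0.802). Hba-a2 (ENSMUSG00000069917; chromosome 11, 32246489 to 32247298), its copy, did not keep that order: it had 1171, 672 and 1975 CPM in adenine 1, 2 and 3, against 1063, 2881 and 372 CPM in control 1, 2 and 3. Here adenine 3 was the highest of its group and adenine 2 lay below control 1. For Hba-a2 the log2 fold change was -0.18 (SE 0.75; edgeR adjusted p = 0.934), the one negative value among the 9. The alpha rows summed had a log2 fold change of 0.44 (SE 0.77; edgeR adjusted p = 0.827).

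Together the 4 globin rows held 7.29%, 4.19% and 4.92% of all counts in adenine 1, 2 and 3, against 3.92%, 7.22% and 0.838% in control 1, 2 and 3. The Wilson 95% intervals of these shares are at most 0.0323 percentage points wide and cover counting error only, not the spread between libraries. Hbb-bs had the highest FPKM, a level scaled to transcript length and library size, of all genes in adenine 1, adenine 3, control 1 and control 2, was second in adenine 2 and was 8th in control 3. With the globin rows left out of the library sizes and scaling, the log2 fold change of Hbb-bs was again 0.50.

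Alas2, on chromosome X (ENSMUSG00000025270; 149330371 to 149353634), encodes the erythroid form of the first enzyme of haem synthesis. It had 1911, 1563 and 1097 CPM in adenine 1, 2 and 3, against 1016, 1836 and 305 CPM in control 1, 2 and 3. Only adenine 1 exceeded control 2, and only control 3 lay well clear of the other libraries. The log2 fold change was 0.53 (SE 0.64; edgeR adjusted p = 0.745). Slc4a1 (ENSMUSG00000006574; chromosome 11, 102239650 to 102257029), the band 3 gene, had 2839, 2208 and 1802 CPM in adenine 1, 2 and 3, against 1608, 2949 and 575 CPM in control 1, 2 and 3. Its highest library was control 2. The log2 fold change was 0.42 (SE 0.61; edgeR adjusted p = 0.793).

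The receptor and the regulators were lower in level, and each was highest in adenine 1 and lowest in control 3. Epor (ENSMUSG00000006235; chromosome 9, 21870193 to 21874802) had 113.8, 91.3 and 93.1 CPM in adenine 1, 2 and 3, against 61.1, 104.9 and 27.1 CPM in control 1, 2 and 3. Its adenine libraries were the tightest of any of the 9 genes, the highest being 1.25 times the lowest, yet control 2 lay among them. Its log2 fold change of 0.63 had the smallest standard error of the 9, 0.44, and a 95% interval of -0.41 to 1.66 (edgeR adjusted p = 0.612). Klf1 (ENSMUSG00000054191; chromosome 8, 85628557 to 85631924) had 155.7, 82.5 and 129.7 CPM in adenine 1, 2 and 3, against 80.4, 152.0 and 24.7 CPM in control 1, 2 and 3. Gata1 (ENSMUSG00000031162; chromosome X, 7825499 to 7844310) had 162.8, 104.6 and 145.4 CPM in adenine 1, 2 and 3, against 79.2, 161.6 and 25.7 CPM in control 1, 2 and 3. For both, adenine 2 was the lowest adenine library, unlike the globins, where adenine 3 was the lowest except in Hba-a2. Klf1 had a log2 fold change of 0.52 (SE 0.59; edgeR adjusted p = 0.736), and Gata1 one of 0.63 (SE 0.58; edgeR adjusted p = 0.681).

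As a group the 9 genes had 8 positive log2 fold changes and 1 negative one, with a median of 0.50, where all 15609 genes had a median near 0 and 50% positive; without control 3, too, 50% of all genes were positive. This median rested on single libraries, by a check added after seeing the data. Without control 3 it was 0.06, and Hbb-bt at -0.18 and Hba-a2 at -0.61 were then the 2 negative genes. Without control 2 it was 1.14, with a smallest edgeR adjusted p of 0.222 among the 9, and without adenine 1 it was 0.31. The highest control library exceeded the lowest 3.87-fold (Epor) to 13.3-fold (Hbb-bt), and the highest adenine library exceeded the lowest 1.25-fold (Epor) to 2.94-fold (Hba-a2). For the median gene of all 15609, the highest control library exceeded the lowest 1.74-fold.

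**Figure D2:**
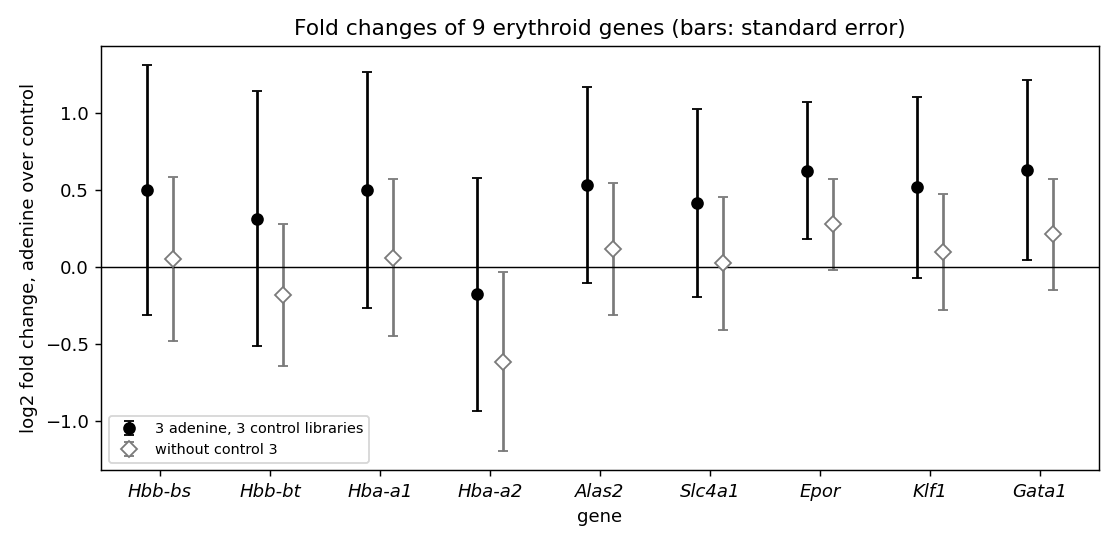
Log2 fold change (adenine over control) of 9 erythroid genes from edgeR, with its standard error, from all 6 libraries and without control 3. With all libraries the values run from -0.18 to 0.63, and without control 3 from -0.61 to 0.28.

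Compared per length, in FPKM, the genes kept nearly one order in every library. Hbb-bs had 38104 ± 10039 FPKM on the adenine diet and 25651 ± 18640 FPKM on the control diet (SD, n = 3 each). It was followed by Hba-a1, Hbb-bt, Hba-a2, Alas2, Slc4a1 and Klf1, in that order within 6 of 6 libraries. Klf1 stood above Gata1 in 6 of 6 libraries, by 1.25 to 1.61 times. Gata1 and Epor were not separated: Gata1 was higher in 4 of 6 libraries, and the ratio ran from 0.772 to 1.27. Alas2 exceeded Slc4a1 in 6 of 6 libraries, but by as little as 1.08 times in control 3.

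Ratios of FPKM within a library do not depend on how libraries are scaled to each other, and they show how even the erythroid signal was. The alpha genes summed stood at 0.506, 0.460 and 0.553 of the beta genes summed in adenine 1, 2 and 3, against 0.478, 0.533 and 0.601 in control 1, 2 and 3. The log2 ratio was -0.99 ± 0.13 on the adenine diet and -0.90 ± 0.17 on the control diet (SD, n = 3 each), a difference smaller than either spread. The globins summed exceeded Alas2 by 109, 98.3 and 127 times in adenine 1, 2 and 3, against 126, 114 and 90.8 times in control 1, 2 and 3, so the groups overlapped while total globin varied widely. They exceeded Klf1 by 857, 1188 and 683 times in adenine 1, 2 and 3, against 1015, 881 and 715 times in control 1, 2 and 3, where adenine 2 was the highest library and adenine 3 the lowest.

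Control 3 departed from the others in some of these ratios as well as in level. Globins summed exceeded Slc4a1 by 150, 142 and 157 times in adenine 1, 2 and 3, against 162, 145 and 97.9 times in control 1, 2 and 3. Hbb-bs exceeded Hbb-bt by 5.21, 5.65 and 5.19 times in adenine 1, 2 and 3, against 5.01, 4.27 and 7.85 times in control 1, 2 and 3. Control 3 was thus the lowest library for globin against band 3 and the highest for Hbb-bs against Hbb-bt. The latter ratio is of rows that are uncertain when taken singly.

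The ratio of the haem enzyme gene to the regulator gene Klf1 was added to the ratios planned. It was spread more widely among the adenine libraries than among the controls, which was not tested. Alas2 exceeded Klf1 by 7.83, 12.1 and 5.40 times in adenine 1, 2 and 3, against 8.07, 7.71 and 7.88 times in control 1, 2 and 3. The controls lay close together even though the level of control 2 exceeded that of control 3 more than 6-fold in both genes, whereas adenine 2 lay above the control range and adenine 3 below it. The SD of the log2 ratio was 0.58 on the adenine diet and 0.03 on the control diet (n = 3 each), with means that differed by 0.02. Ratios did not all spread this way. The SD was 0.07 on the adenine diet and 0.46 on the control diet for log2 Hbb-bs to Hbb-bt, and 0.07 and 0.38 for globins to Slc4a1. It was 0.40 and 0.25 for globins to Klf1, and 0.90 and 0.37 for Hba-a1 to Hba-a2. Globins to Gata1, also added to the ratios planned, had SDs of 0.32 and 0.29. The alpha copies varied most of all: Hba-a1 exceeded Hba-a2 by 15.7, 19.0 and 5.95 times in adenine 1, 2 and 3, against 9.79, 6.02 and 6.75 times in control 1, 2 and 3. Adenine 3 was the lowest of the 6 libraries and the other adenine libraries were the highest 2. How reads that fit both copies were counted is not stated, so ratios between the copies of a pair are uncertain.

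**Figure D3:**
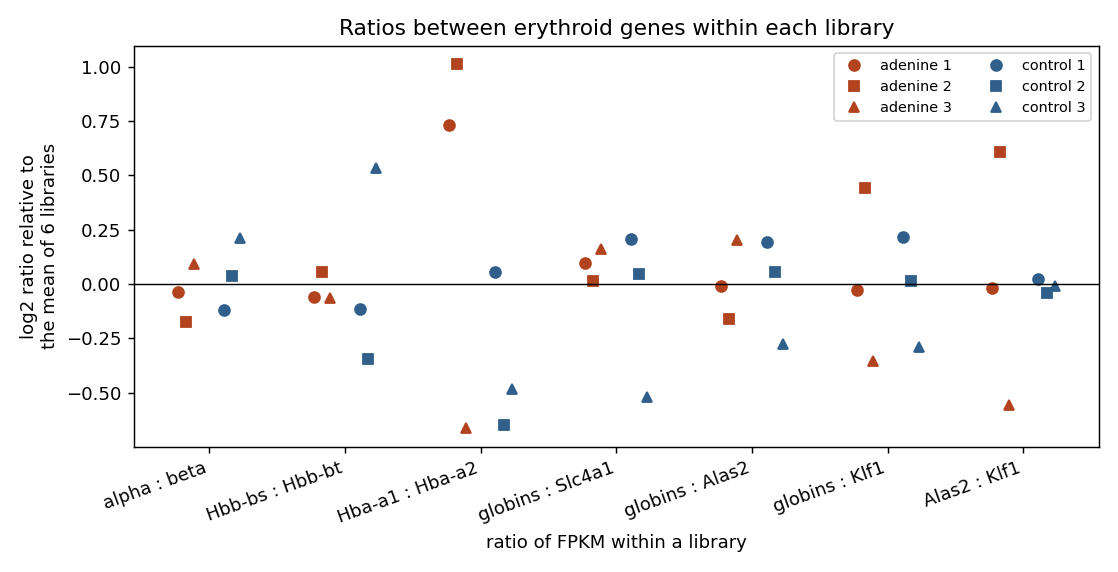
Log2 ratios of FPKM between erythroid genes within each library, relative to the mean of the 6 libraries, adenine in red and control in blue. Most ratios stay within a narrow band, while Hba-a1 to Hba-a2 spreads most and Alas2 to Klf1 is tight in the controls and wide in the adenine libraries. Hbb-bs to Hbb-bt and globins to Slc4a1 spread more among the controls. Ratios between the copies of a pair are of rows that are uncertain when taken singly.

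Wider lists of erythroid genes, some of which hold 1 or more of the 9, were read in the same fit, and 0 genes of any of these lists passed an adjusted p of 0.05 in edgeR or in the DESeq2 Wald test. The other globin genes were scarce. Hbq1b, a theta-globin gene of the alpha cluster, had 44.6, 36.1 and 29.0 CPM in adenine 1, 2 and 3, against 31.5, 40.9 and 8.05 CPM in control 1, 2 and 3. Hbq1a, its copy, had a log2 fold change of 0.35 (SE 0.85) on at most 46 reads in any library. Hba-x, Hbb-y and Hbb-bh1, which are embryonic globin genes, and Hbb-bh2 were too low to be tested, with at most 7 reads of each in any library.

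Of the 14 genes of haem synthesis and mitochondrial iron import, 12 had a positive log2 fold change and 2 a negative one, with a median of 0.42, and 12 were lowest in control 3. Alad and Tmem14c, which make and move haem precursors, had log2 fold changes of 0.59 and 0.57. Alas1, the form of the first enzyme that all cells use, had a log2 fold change of -0.33 (SE 0.26; edgeR adjusted p = 0.644). It had 45.1, 48.1 and 45.0 CPM in adenine 1, 2 and 3, against 44.5, 49.8 and 79.0 CPM in control 1, 2 and 3, so that control 3 was its highest library. Without control 3 the median of the list was 0.07.

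Of 18 tested genes of the red cell membrane and skeleton, 16 had a positive log2 fold change, the median was 0.38 and 17 were lowest in control 3. Rhag, a Rhesus-associated channel gene, had 0.70 and Mpp1, a membrane scaffold gene, had 0.57, with standard errors of 0.56 and 0.43. Of 20 genes of erythroblast and reticulocyte maturation, 19 were positive, the median was 0.46 and 19 were lowest in control 3. Tfrc, the transferrin receptor, had 0.86 (SE 0.44; edgeR adjusted p = 0.519), Car1, a carbonic anhydrase of red cells, had 0.84, and Aqp9, a red cell glycerol channel in mice, had 1.08. Without control 3 these lists had medians of 0.01 and 0.07.

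Of 14 erythroid transcription factor genes, 10 were positive, the median was 0.29 and 12 were lowest in control 3. E2f2, a cell cycle factor of erythroblasts, had 544.8, 454.4 and 324.1 CPM in adenine 1, 2 and 3, against 195.3, 344.9 and 92.1 CPM in control 1, 2 and 3. Its log2 fold change of 1.07 did not pass (SE 0.49; edgeR adjusted p = 0.490), and control 2 exceeded adenine 3. Tal1 and Ldb1, which work in a complex with GATA1, had 0.52 and 0.42.

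The 12 tested genes of erythropoietin receptor signalling did not share the erythroid order: their median was 0.09 and 3 were lowest in control 3. Socs3, a feedback inhibitor that many cytokines induce, had 27.9, 24.0 and 36.9 CPM in adenine 1, 2 and 3, against 18.6, 13.3 and 21.8 CPM in control 1, 2 and 3, with no overlap between the diets. It was the one gene of these lists with an unadjusted edgeR p under 0.05, and it did not pass over all genes (log2 fold change 0.73, SE 0.28, edgeR adjusted p = 0.432). The authors' deposited values, which match the DESeq2 Wald test, gave a different set. Among the genes named here, their unadjusted p was under 0.05 for E2f2 (0.023), Hmox1 (0.024) and Tfrc (0.030), and was 0.054 for Socs3. Pim1, a kinase gene induced by cytokines, had a log2 fold change of 0.66. Kitl, the stem cell factor gene of stromal cells, had one of -0.39 and was highest in control 3. Of 7 tested genes of haem and haemoglobin clearance, 6 were positive and the median was 0.35. Hmox1, which opens the haem ring, had 112, 47.4 and 105 CPM in adenine 1, 2 and 3, against 24.6, 69.3 and 26.8 CPM in control 1, 2 and 3. Its log2 fold change was 1.13 (SE 0.49; edgeR adjusted p = 0.474), and 0.93 without control 3. Macrophages, which clear red cells and express this enzyme, have a marker list of their own here: 9 of 10 tested macrophage genes were positive, and their mean log2 CPM relative to the 6 libraries was 0.44, 0.07 and 0.90 in adenine 1, 2 and 3, against -0.49, -0.35 and -0.58 in control 1, 2 and 3. Of these 10 genes, 8 were higher at an unadjusted edgeR p under 0.05, against 4.22% of all genes. At an adjusted p of 0.05, 0 passed in edgeR and 2 in the DESeq2 Wald test, against 0% and 1.93%. The part of macrophages in the Hmox1 values was not tested. Hp (haptoglobin) and Flvcr1, a haem exporter gene, had 0.74 and 0.31.

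Across 11773 protein-coding genes of at least 1 FPKM, the genes closest to the mean standardized level of the 9 included Nusap1, Bub1, Sgo1, Cks2, Cd47, Wdr76, Rab3il1, Uros and Hemgn. Likeness was the Pearson correlation of log2 CPM over the 6 libraries, between 0.995 and 0.998 for those named, and it is a description: the 9 genes' own mean ran from 0.80 in control 2 to -1.86 in control 3. Nusap1, Bub1, Sgo1 and Cks2 serve chromosome segregation and the cell cycle, Uros is a haem enzyme gene and Hemgn encodes the erythroid nuclear protein hemogen. Nusap1 had 200.5, 134.9 and 145.1 CPM in adenine 1, 2 and 3, against 112.9, 204.3 and 39.8 CPM in control 1, 2 and 3. A correlation of at least 0.95 was reached by 459 genes, or 3.90%.

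Markers of other cells showed how far the erythroid order was shared. The level of a list is given as the mean log2 CPM of its tested genes relative to the 6 libraries. The 9 erythroid genes stood at 0.69, 0.16 and 0.32 in adenine 1, 2 and 3, against -0.08, 0.82 and -1.90 in control 1, 2 and 3. Neutrophil and granulocyte precursor genes, from another marrow lineage, stood at 0.65, 0.49 and 0.75 in adenine 1, 2 and 3, against -0.41, 0.69 and -2.17 in control 1, 2 and 3, and 14 of 15 were lowest in control 3. T and NK cell genes stood at 0.40, -0.58 and 0.23 in adenine 1, 2 and 3, against 0.43, 0.26 and -0.74 in control 1, 2 and 3, with 3 of 7 lowest in control 3. The mean of the macrophage genes, given beside Hmox1, was lowest in control 3 as well, with 5 of 10 lowest there. Kidney tubule genes, which bone is not known for, stood at 3.28, 1.04 and -1.15 in adenine 1, 2 and 3, against -0.51, -1.17 and -1.49 in control 1, 2 and 3. They were thus highest in adenine 1, the highest library for 6 of the 9 erythroid genes, and lowest in control 3, with 6 of 15 lowest there. The orders differed between these ends: control 2, with the highest erythroid mean, stood below every library but control 3 for the kidney genes.

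Megakaryocyte and B cell genes did not have control 3 at the bottom. Megakaryocyte and platelet genes stood at 0.57, -1.30 and 0.71 in adenine 1, 2 and 3, against -0.83, 1.37 and -0.51 in control 1, 2 and 3, with 1 of 12 lowest in control 3. B cell genes stood at -0.59, -1.34 and -0.04 in adenine 1, 2 and 3, against 0.36, 1.70 and -0.08 in control 1, 2 and 3, with 0 of 9 lowest in control 3. Skeletal muscle genes stood at -2.77, 1.77 and -1.99 in adenine 1, 2 and 3, against 1.35, -0.45 and 2.09 in control 1, 2 and 3. Muscle was therefore highest in the library where the erythroid genes were lowest. Adenine 2 came next for muscle, with the 9 erythroid genes at 0.16. Muscle was not alone in this: endothelial genes were also highest in control 3, at 0.71, with 0 of 10 lowest there. Whether marrow left after flushing, muscle left on the bone or RNA of kidney had a part in the erythroid levels was not tested.

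**Figure D4:**
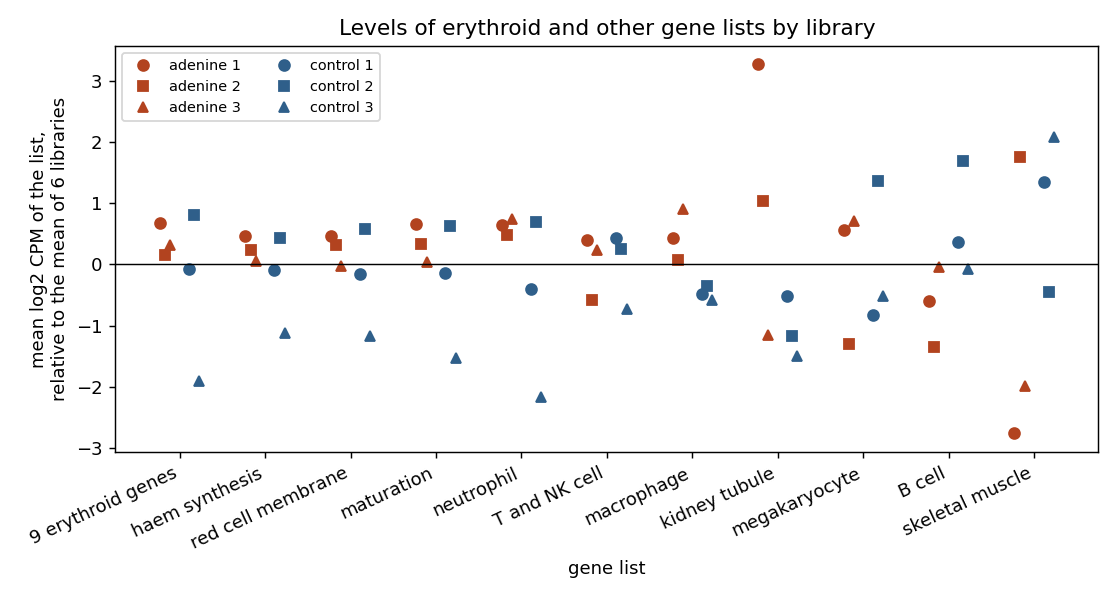
Mean log2 CPM of erythroid and other gene lists in each library, relative to the mean of the 6 libraries, adenine in red and control in blue. Control 3 is lowest for the erythroid, neutrophil, T and NK cell, macrophage and kidney tubule lists, at -1.90 for the 9 genes and -2.17 for the neutrophil list, but not for megakaryocyte, B cell or muscle genes.

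The libraries held 9977694 to 12044459 counts on the adenine diet and 10549071 to 14598010 on the control diet, with 13975659 in control 3 and 9977694 in adenine 1. Bone genes were present in all of them: Col1a1, the main bone collagen gene, ran from 827 to 2262 FPKM on the adenine diet and from 792 to 900 FPKM on the control diet. The osteocyte gene Dmp1 ran from 12.7 to 33.1 FPKM on the adenine diet and from 37.7 to 54.2 FPKM on the control diet. Bglap ran from 213 to 1253 FPKM on the adenine diet and from 269 to 915 FPKM on the control diet. Phex was the lowest, at 1.55 to 4.07 FPKM on the adenine diet and 3.61 to 6.64 FPKM on the control diet.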

How the data were processed

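PolyA RNA of flushed tibial cortex was sequenced, and libraries were grouped by the diet and number in their titles. Tools listed in the submitters' processing notes are edgeR 3.22.5, DESeq2, featureCounts 1.5.0-p3 and HISAT2 2.0.5, with no role; no build, annotation, strand setting or rule for shared reads is stated in the sources used here. The authors deposited raw counts per gene, a scaled signal (the counts divided by 1 size factor per library), FPKM, and log2 fold changes with p-values. The FPKM of both deposited tables (25721 and 56748 genes) differ by at most 4.97e-06.

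Counts were tested with edgeR 4.0.16 in R 4.3.3 (quasi-likelihood, robust, two-sided, TMM, diet as the only term). The filter, filterByExpr at a minimum of 10 counts, kept 15609 genes, and p-values were adjusted over these by Benjamini-Hochberg, with a threshold of 0.05. An SE is the absolute log2 fold change over the square root of F. Log2 CPM used a prior count of 2. The script was tested on simulated data with the spread estimated from these libraries. There edgeR recovered 1% of 2-fold and 39% of 4-fold changes, with 1 false call. The DESeq2 Wald test recovered 11% and 73%, with 34 false calls. Most 2-fold changes would thus be missed. Ratios and shares carry no test. Genes were named by a rule: the 9 genes, the 3 tested genes of each erythroid list with the smallest p, and the 10 protein-coding genes most like the 9 among those averaging 1 FPKM or more; some genes that the rule names are not reported here. Col1a1, Bglap, Dmp1 and Phex were added as a tissue check. The 9 genes and all lists were chosen with earlier results of these data known. Alternatives used DESeq2 1.42.0, limma 3.58.1, other filters and scalings, summed globin pairs, a replicate block and each library left out.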

Additional observations from a re-analysis of the deposited data

How the results depend on the processing

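Under the 16 alternatives of the fit, 0 of the 9 erythroid genes with a value passed (7 had one where the globin pairs were summed). Over all genes, the count of 0 became 361 with the DESeq2 Wald test, 66 with no filter on low counts, and 1 with limma-trend on log2(FPKM + 1) or log2(FPKM + 0.1). With 1 library left out it ran from 0 to 334, the highest being without adenine 2. The cause was not tested. The median of the 9 log2 fold changes, 0.50 in edgeR, was 0.89 with limma-trend and 0.84 under a replicate block, where 0 genes passed. Replicate numbers did not pair the libraries (correlations of same-numbered deviations -0.04, -0.45 and -0.17). Hba-a2 turned to 0.20 with limma-trend at either pseudocount and to 0.15 under the replicate block.

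With 1 library left out, log2 fold changes ran from -0.18 (without control 3) to 1.10 for Hbb-bt, -0.65 to 0.82 for Hba-a2, which was 0.14 without adenine 2, and -0.46 to 1.17 for Hbq1a, which was -0.08 without control 3. Their lowest values, without control 3, were -0.045 for Sgo1, -0.057 for Uros (highest 0.73) and -0.091 for Hemgn. The median of the 9 ran from 0.06 to 1.14. Medians with 1 library left out, of the 9 genes and of the lists, were added after seeing the data. The list medians ran from 0.07 to 0.92 for haem synthesis, 0.01 to 0.96 for the membrane and 0.07 to 0.96 for maturation. Transcription factors ran from 0.06 to 0.75, receptor signalling from 0.081 to 0.41, other globins from -0.02 to 1.03 and clearance from 0.27 to 0.53. The ranges were 0.42 to 1.79 for neutrophils, -1.65 to -0.62 for B cells and -0.46 to 0.92 for megakaryocytes. The difference between diets in log2 Hba-a1 to Hba-a2, a ratio of rows uncertain when taken singly, ran from 0.39 to 1.23. That in the haemoglobin share of FPKM ran from -0.76 to 8.82 percentage points. The spread between libraries, with SEs of 0.44 to 0.83, limits what they can show.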
